A study of Homo sapiens with 10 samples.

Results

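The genes of the 7SK small nuclear ribonucleoprotein (7SK snRNP) and of positive transcription elongation factor b (P-TEFb) were examined as targets of their own products. The 8 genes were taken by name from the GENCODE annotation of hg19: the 7SK RNA gene RN7SK, and HEXIM1, HEXIM2, LARP7, MEPCE, CDK9, CCNT1 and CCNT2. They are 8 of 62259 annotated gene symbols, and the 7 that code for protein are among 20133 coding genes. The study mapped chromatin by ChIP-seq, which sequences DNA crosslinked to an antibody's target, in HCT116, a human colorectal carcinoma cell line, with no treatment or genotype given. Its question was where KAP1 (TRIM28), the 7SK snRNP and RNA polymerase II (Pol II) sit together. Of 10 libraries, 1 per antibody, 5 gave peak lists used here, for KAP1, for total Pol II and for the complex through its Cdk9, Hexim1 and Larp7 subunits. Not analysed here were the input library and those for Ser5-phosphorylated Pol II and for the histone marks H3K27ac, H3K4me1 and H3K4me3. Crosslinking took 10 min in 1% formaldehyde, and 50 min of sonication gave fragments between 100 and 300 bp.

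The labels call the cells colonic endothelial, although the line is of epithelial origin. A Pol II peak lay within 1 kb of a start of 11 of 12 epithelial marker genes, EPCAM, CDH1 and KRT8 among them. It did so at 6 of the 11 endothelial markers that matched the annotation, including TIE1, ERG and CLDN5. Over all coding genes the share was 77.2%. With so few markers these counts separate the labels only partly at best, and the difference was not tested. The strongest Pol II fold was 119.8 at the epithelial and 92.4 at the endothelial markers. With no replicate of any antibody there is no error between samples, no test and no p-value, and every count below describes 5 single libraries.

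P-TEFb is a kinase, CDK9, with a cyclin T partner. It phosphorylates Pol II and the factors that hold it paused just downstream of a start, which lets the polymerase elongate. In the 7SK snRNP, the 7SK RNA serves as a scaffold: MEPCE caps and LARP7 protects the RNA, and a HEXIM protein bound to it holds P-TEFb inactive. The 7SK RNA itself is made by RNA polymerase III (Pol III) from a promoter that lies upstream of the gene, as the U6 genes have, and the 7 protein genes are read by Pol II.

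The DNA just upstream of the 5′ ends shows how the promoters differ that the peaks below cover or leave bare. Each sequence is from GRCh37 (hg19), 5′ to 3′ on the strand of the gene. Capitals mark matches, on either strand, to the TATA-box form TATAAA, the related form TATATA and the GC-box core GGGCGG. The CCAAT box and the octamer ATGCAAAT were also searched, and neither matched in these windows. The first is chr6:52860168-52860467, plus strand, which ends with the first 50 bases of the gene. The next 3 are the 100 bases before the 5′ end: chr17:43225742-43225841 and chr9:130547858-130547957, both plus strand, and chr12:49110782-49110881, minus strand. The last, chr4:113558152-113558232, plus strand, is the whole 81 bp between the 5′ ends of LARP7 and its divergent neighbour ZGRF1.
RN7SK: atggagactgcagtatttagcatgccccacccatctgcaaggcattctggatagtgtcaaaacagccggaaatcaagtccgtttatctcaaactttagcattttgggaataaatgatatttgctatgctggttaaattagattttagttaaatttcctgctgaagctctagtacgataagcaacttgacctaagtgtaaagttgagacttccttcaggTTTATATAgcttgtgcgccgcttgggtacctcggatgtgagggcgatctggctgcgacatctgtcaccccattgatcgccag
HEXIM1: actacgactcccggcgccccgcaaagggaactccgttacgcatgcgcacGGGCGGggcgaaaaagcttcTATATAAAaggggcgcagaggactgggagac
CDK9: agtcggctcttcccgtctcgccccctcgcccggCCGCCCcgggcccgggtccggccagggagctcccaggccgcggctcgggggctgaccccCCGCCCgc
CCNT1: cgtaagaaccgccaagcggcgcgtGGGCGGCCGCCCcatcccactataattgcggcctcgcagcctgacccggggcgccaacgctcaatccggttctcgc
LARP7: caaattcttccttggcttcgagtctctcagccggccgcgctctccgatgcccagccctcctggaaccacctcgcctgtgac
RN7SK and HEXIM1 both held a TATA-like run at almost the same place. In RN7SK, TATATA ran from -30 to -25 and overlapped a minus-strand TATAAA from -32 to -27. In HEXIM1, TATATA ran from -31 to -26 and overlapped TATAAA from -29 to -24, with GGGCGG at -51 to -46. CDK9 and CCNT1 held GGGCGG at 2 places each and no TATA match, and the LARP7 window held none of the 5 motifs. Among 15308 RefSeq coding promoters (GRCh38.p14), the 300-base window held TATAAA in 9.58% and TATATA in 3.33%. In the 100 bases before the start the shares were 5.41% for TATAAA, 1.84% for TATATA and 43.5% for GGGCGG. In the 81 bases before the start, 5.02% held TATAAA and 39.1% GGGCGG. A match describes letters, not a bound site.

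Larp7 and Hexim1 peaks lay within 1 kb of a start of all 8 genes, but so they did at most coding genes. A gene was counted when a peak overlapped, by 1 bp or more, the 1 kb on either side of any annotated transcript start. LARP7 was counted through windows around 28 starts, none of which lay under a peak. The median over coding genes was 5 starts. Larp7 peaks were counted at 8 of 8 genes (82.1% of coding genes), and so were Hexim1 peaks (84.6%). Cdk9 peaks were counted at 6 of 8, all but LARP7 and CCNT1 (77.0% of coding genes). Pol II peaks were counted at 7 of 8, all but LARP7 (77.2%), and KAP1 peaks at 5 of 8 (72.3%). All 5 lists met at HEXIM1, HEXIM2, MEPCE, CDK9 and CCNT2, which is 5 of 8 against 68.0% of coding genes. HEXIM1 left that group, without Cdk9, at 500 bp, and without KAP1 and Cdk9 when the middle of the peak had to lie in the window. With the annotated 5′ end of each gene as its single start, Hexim1 peaks were counted at 8 (78.7% of coding genes), Larp7 at 7 (75.1%), Pol II at 7 (70.5%), Cdk9 at 6 (69.1%), KAP1 at 5 (64.6%) and all lists at 5 (59.7%). With 8 genes these counts lie near the background, and they are no result about the complex.

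The remaining 3 genes each lacked at least 1 list. RN7SK lacked KAP1 only, a combination found at 737 coding genes (3.66%). LARP7 had Larp7 and Hexim1 peaks only, as 421 coding genes did (2.09%). CCNT1 had Pol II, Larp7 and Hexim1 peaks but neither KAP1 nor Cdk9, as 349 did (1.73%). These exact combinations were read off the 3 genes, and splitting the coding genes so finely makes each share small by construction. Of coding genes with a Pol II peak at a start, 89.9% also had a KAP1 peak, 93.6% a Cdk9 peak, 96.5% a Larp7 peak and 98.9% a Hexim1 peak.

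**Figure D1:**
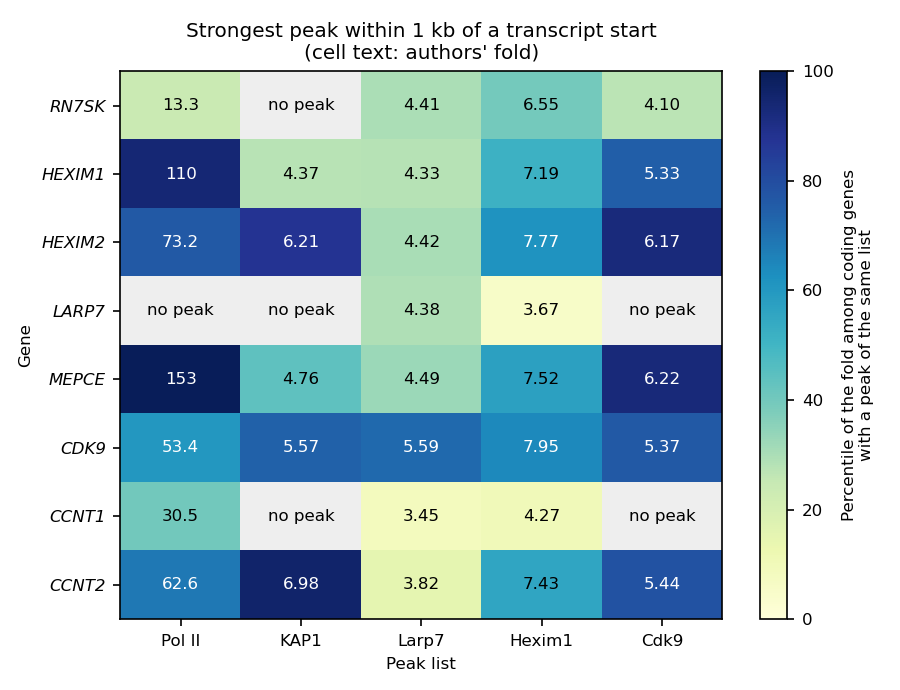
Strongest peak within 1 kb of a transcript start of each gene (rows) in each peak list (columns). Cell text is the authors' fold; colour is its percentile among coding genes with a peak of the same list, and grey means no peak. MEPCE and HEXIM1 are highest for Pol II, CCNT2 for KAP1, and LARP7 and CCNT1 have the lowest Hexim1 values.

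The height of the peaks divided the genes further. The fold of a peak is the authors' own value of enrichment and is set here only against peaks of the same list, as a percentile of the strongest peak at a start among coding genes with one. For Pol II the order was MEPCE (153, percentile 99.5), HEXIM1 (110, 93.8), HEXIM2 (73.2, 76.3), CCNT2 (62.6, 68.4), CDK9 (53.4, 60.3), CCNT1 (30.5, 40.1) and RN7SK (13.3, 24.0). For KAP1 it was CCNT2 (6.98, percentile 95.8), HEXIM2 (6.21, 87.7), CDK9 (5.57, 74.1), MEPCE (4.76, 43.8) and HEXIM1 (4.37, 27.4). HEXIM1 thus stood near the top for Pol II and in the lower part of the KAP1 list, and CCNT2 was higher in the KAP1 list than in that of Pol II. Cdk9 peaks were at percentiles 74.9 to 92.9 at the 5 coding genes that had one, highest at MEPCE (fold 6.22). At those 5 genes Hexim1 folds were 7.19 to 7.95, percentiles 51.2 to 64.3. Larp7 folds were lower in their list: 7 of 8 genes lay at percentile 32.5 or below, and CDK9 alone (5.59) reached 71.9. Without replicates the order of neighbours in these rankings has no error attached.

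RN7SK, chr6:52860418-52860748 on the plus strand, was covered from end to end by 3 lists and bare in the Pol II and KAP1 lists. Positions are counted in bp from the annotated 5′ end, in the direction of the gene. The Larp7 peak ran from -887 to 618 (fold 4.41), the Hexim1 peak from -925 to 697 (6.55) and the Cdk9 peak from -859 to 546 (4.10), and each covered 100% of the 331 bp. The middles of these peaks lay upstream of the gene, at -135, -114 and -157 in that order. Pol II peaks were deposited in narrow format and these lists in broad format. Cover of a short gene is therefore not alike between them. Both Pol II peaks ended before the gene: one from -862 to -590 (fold 6.15) and one from -442 to -201 (13.3, summit at -297). The stronger Pol II peak lay over the start of GSTA4, a glutathione transferase gene read by Pol II in the opposite direction from -316. The peaks of all 4 lists reached that start, so they are not assigned to either gene alone. The TATA-like run printed above, at -32 to -25, fell inside the Larp7, Hexim1 and Cdk9 peaks and outside both Pol II peaks. Downstream no Pol II peak followed for 65848 bp, and the nearest KAP1 peak was 32804 bp away.

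**Figure D2:**
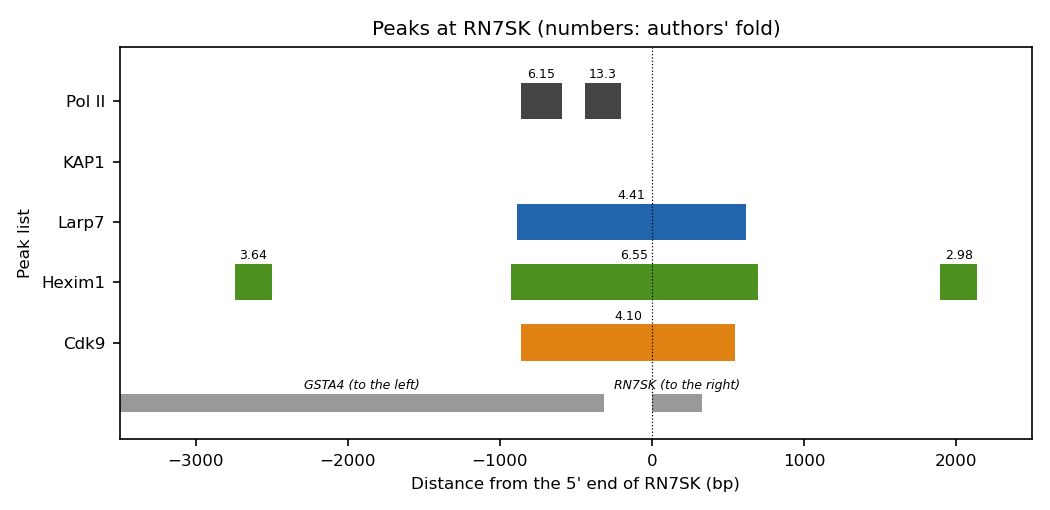
Peaks of the 5 lists (rows) by distance from the 5′ end of RN7SK in bp; numbers are the authors' folds and grey bars the genes. Larp7, Hexim1 and Cdk9 peaks span RN7SK, both Pol II peaks end upstream of it at -590 and -201, and KAP1 has none.

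Other Pol III genes whose promoters lie upstream shared the upstream Pol II summit of RN7SK. Some shared the cover of the gene by Larp7 and Hexim1, but seldom that by Cdk9. Of 11 matched genes of this kind (the U6 and U6atac RNAs, the RNase MRP RNA and the Y RNAs), 8 had a Pol II peak within 1 kb of the start. At all 8 the strongest Pol II summit lay upstream, between -338 at RNU6-1 and -507 at RNU6ATAC, and that of RN7SK was the nearest to its gene. A Pol II peak on the gene itself was present at 2 of 11: over 68.2% of RMRP, the RNA of RNase MRP, and 62.6% of RNU6-2. Larp7 and Hexim1 peaks lay on the gene itself at 4 of 11 each, and Cdk9 at 1 of 11, RNU6-9. KAP1 peaks were within 1 kb of 8 of the 11 starts and on none of the genes. RN7SK shared the lack of KAP1 with RNU6-8, RNY1 and RNY4. Pol II genes start close by at RMRP (CCDC107), RNU6-2 (TMEM259) and RNU6-9 (MED16), as GSTA4 does at RN7SK, and RNU6-7 and RNU6-8 share peaks. At RMRP, RNU6-2 and RNU6-9, Larp7 and Hexim1 peaks each covered 100% of the gene. At RMRP their middles lay near the start, at -117 and -142, as at RN7SK. Elsewhere they lay farther off, at -942 and -10213 for RNU6-2 and at -5251 and -16356 for RNU6-9. Cover of RNU6-2 and RNU6-9 by such wide peaks is therefore not like that of RN7SK. Of the other genes, Larp7 covered RNU6-7 and Hexim1 covered RNU6ATAC. Whether the cover goes with a neighbouring Pol II gene was not tested.

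**Figure D3:**
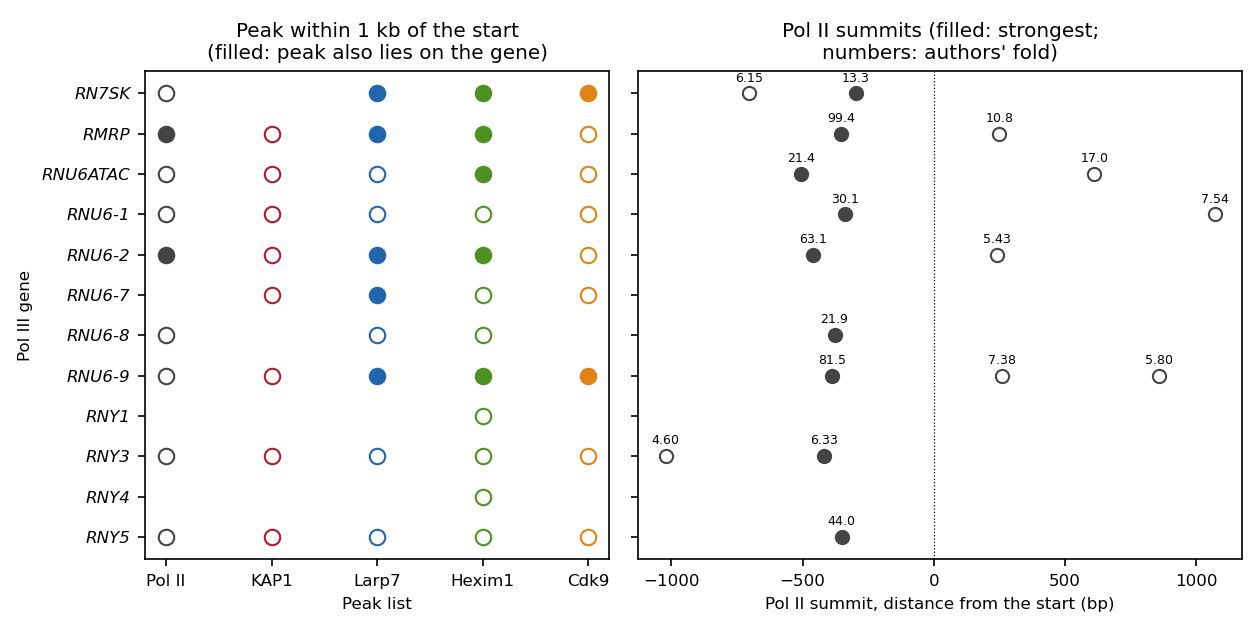
Pol III genes with upstream promoters (rows). Left, peaks within 1 kb of the start by list, filled where a peak also lies on the gene; right, Pol II summits by distance from the start in bp with the authors' fold, the strongest filled. All 9 strongest Pol II summits lie upstream, from -297 at RN7SK to -507 at RNU6ATAC.

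Among 5 Pol III genes of other promoter types, RN7SL2, an RNA of the signal recognition particle, was the single one with a Pol II peak (fold 18.0, summit at -67). Hexim1 peaks were near all 5 and Larp7 peaks near 3. The genome also holds 291 annotated RN7SK pseudogenes, copies of the RNA with a median length of 305 bp. Hexim1 peaks overlapped 14 of them (4.81%, exact 95% interval 2.65 to 7.94%), and the Hexim1 list covered 6.02% of the genome. Larp7 peaks overlapped 11 (3.78%, 1.90 to 6.66%), with 4.73% of the genome covered. These measures are unlike: 1 bp of overlap counts a whole copy, while genome cover counts bases. The shares of copies therefore have no matched background here. Cdk9 peaks overlapped 4 (1.37%) and Pol II peaks 2 (0.687%), with 2.54 and 1.35% of the genome covered. Most copies carried no peak of any list. RN7SK did lie under peaks, but these also reached the start of GSTA4. These intervals cover counting error only, and how reads matching several copies were placed is not given in the sources used here.

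HEXIM1 and HEXIM2, the paralogous inhibitors of P-TEFb, are neighbours: their 5′ ends are 12225 bp apart on the plus strand of chromosome 17. HEXIM1, chr17:43225842-43229466, has 1 annotated start. Its strongest Pol II peak ran from -276 to 603 (fold 110, summit at 40), over the TATA-like run at -31. Only the Pol II and Hexim1 lists covered the 5′ end itself, the latter with a peak of 3729 bp from -1887 to 1841 (fold 7.19). Larp7 peaks flanked the start, from -1204 to -58 (4.33) and from 824 to 1815 (4.18). Cdk9 peaks did likewise, from -1591 to -642 (3.49) and from 846 to 1819 (5.33), and KAP1 had 1 peak from 477 to 1744 (4.37). Downstream peaks of Pol II, KAP1, Larp7 and Cdk9 lay mostly over the coding sequence, which runs from 716 to 1792. The single Hexim1 peak ran across it from upstream of the start, and 28.9% of that peak was coding sequence. Of the 1077 bp of coding sequence, Pol II peaks covered 94.2%, KAP1 95.5%, Larp7 90.0%, Hexim1 100% and Cdk9 87.9%. Over all coding genes the median share of coding sequence covered was 4.75, 3.54, 12.1, 13.3 and 6.01% in that order, and between 89.0 and 96.5% of coding genes had less than HEXIM1. The coding sequence of HEXIM1 is unbroken and begins within 1 kb of the start, while that of CCNT2 is spread from 620 to 36410. This ranking was not matched for distance from the start. A lncRNA with no symbol starts at -5 on the opposite strand.

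HEXIM2, chr17:43238067-43247407, had peaks of all 5 lists at both ends of the gene. Near the start the 5 lists met over 547 bp, from 267 to 813, which held 2 of its 8 annotated starts. No list covered the annotated 5′ end. Of the 4 starts in the basic set of GENCODE, Hexim1 peaks covered 3 and those of each other list 0. HEXIM2-AS1, a lncRNA read in the opposite direction, starts at 838. Peaks of all 5 lists near the start also covered a start of HEXIM2-AS1, so they are not assigned to either gene alone. The Pol II fold there was 73.2, that of KAP1 6.21, of Cdk9 6.17, of Hexim1 7.77 and of Larp7 4.42. At the far end, where the gene encodes most of its protein, the strongest Larp7 peak at any of the 8 genes ran from 8364 to 9141 (fold 7.27, rank 1037 of 184243 by p), and 95.5% of it was coding sequence. A KAP1 peak (4.21), a Cdk9 peak (3.48), a Hexim1 peak (4.85) and a pair of Pol II peaks (5.48 and 7.45) lay at the same place. In the Larp7 list the far end was the higher of both, and in the other 4 lists the start was. Between the genes, the 8600 bp gap held 11 Pol II peaks of low fold (3.69 to 8.30), covering 35.7% of it. It held 3 Hexim1 peaks (2.93 to 3.50) over 54.7%, and no KAP1, Larp7 or Cdk9 peak.

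**Figure D4:**
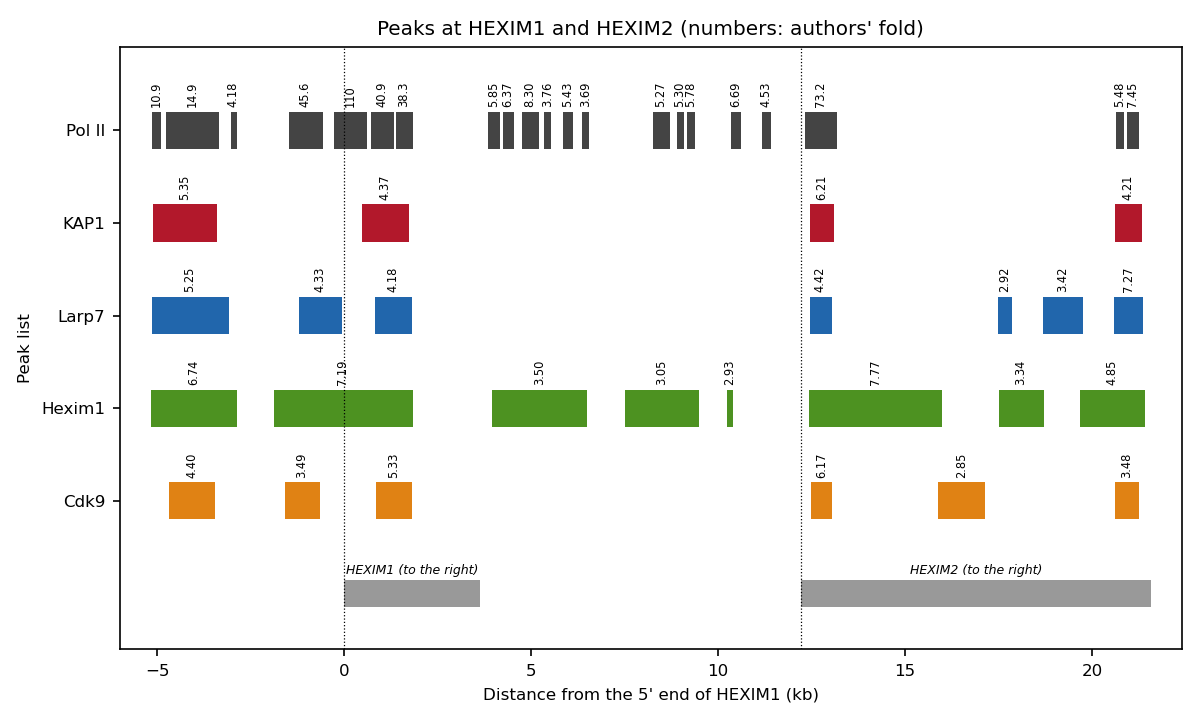
Peaks of the 5 lists (rows) by distance from the 5′ end of HEXIM1 in kb; numbers are the authors' folds, grey bars the genes and dotted lines the 5′ ends. All lists have peaks at HEXIM1 and at both ends of HEXIM2, and the gap between the genes holds Pol II and Hexim1 peaks only.

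LARP7, the RNA-binding protein that keeps 7SK RNA stable, was the member with peaks of the fewest lists at its starts. The gene, chr4:113558233-113578852 on the plus strand, had no Pol II peak in it or within 20 kb, which is so for 12.0% of coding genes. The nearest Pol II peaks were 68596 bp downstream and 112864 bp upstream of its 5′ end. None of its 28 annotated starts lay under a peak of any list. What counted at its starts was 4 narrow Larp7 peaks (178 to 268 bp, folds 2.81 to 4.38) and 3 Hexim1 peaks (226 to 497 bp, folds 2.96 to 3.67). Of these, Larp7 and Hexim1 peaks overlapped at 2 places, from 6722 to 6989 and from 19090 to 19267. KAP1 had 1 intronic peak from 2981 to 3703 (fold 3.06), and Cdk9 none in the gene. With the annotated 5′ end as the single start, only a Hexim1 peak (2.96) was left.

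Yet the promoter of LARP7 is of the kind that the lists covered almost everywhere. In the 500 bp on each side of the 5′ end its ratio of observed to expected CpG was 0.98, percentile 97.4 of coding genes. LARP7 shares that window with ZGRF1, a divergent coding gene that starts at -82. Of the 2013 coding genes in the highest decile by this ratio, 98.7% had a Pol II peak at a start, 96.6% a KAP1 peak and 97.9% a Cdk9 peak. LARP7 was 1 of 16 of them (0.795%) with none of these lists. That combination was read off LARP7 itself, so the share describes the gene and tests nothing. The microRNA genes MIR302D, MIR302A and MIR302C and their host MIR302CHG start, on the opposite strand, within 1 kb of internal LARP7 starts. Peak numbers in each deposited list ran without a gap, and the depth of the libraries is not known, so a lack of peaks is a lack of called peaks.

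MEPCE, chr7:100025945-100031749 on the plus strand, encodes the enzyme that caps 7SK RNA. It had the strongest Pol II peak of the 8 genes, 2407 bp from -173 to 2233 (fold 153, rank 74 of 92939 by p). Pol II, Larp7, Hexim1 and Cdk9 peaks covered all 6 of its starts, and KAP1 peaks 2. The Larp7 peak was 3456 bp (fold 4.49), the Hexim1 peak 4107 bp (7.52) and the Cdk9 peak 2248 bp (6.22). KAP1 left a gap inside that span, with a weak peak from -121 to 456 (3.14) and a stronger one from 1427 to 3333 (4.76). All 5 lists met over 534 bp from -77 to 456, and again over 744 bp from 1427 to 2170. ZCWPW1, a coding gene on the opposite strand, starts 2 bp from a MEPCE start, so both genes take the same peaks.

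CDK9, the kinase of P-TEFb, had 2 clusters in which peaks of all 5 lists met over a start. At chr9:130547958-130553071, plus strand, all 5 lists met over 1644 bp from -636 to 1007, around 3 of its 5 starts. At this first cluster Pol II had a fold of 53.4, Hexim1 7.95, KAP1 5.57, Larp7 5.44 and Cdk9 5.01. A second cluster lay at an internal start, where the lists met over 563 bp from 2577 to 3139. Pol II (15.8), KAP1 (3.47) and Hexim1 (6.79) were lower there than at the first cluster, and Larp7 (5.59) and Cdk9 (5.37) slightly higher, with no replicate to give these differences an error. In each list the same 4 of 5 starts lay under a peak. The peaks covered 63.8 to 80.9% of its coding sequence, which lies from 119 to 3861. The Cdk9 list thus held peaks at the gene of its own target. MIR3960, a microRNA gene, starts at 154 on the same strand.

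CCNT1, the main cyclin partner of CDK9, differed from CCNT2 in KAP1 and Cdk9. CCNT1, chr12:49082241-49110781 on the minus strand, had Pol II peaks at its starts with folds 30.5 (summit at -108), 6.15 and 5.25. The Hexim1 peak over the 5′ end, from -1196 to 1518, had a fold of 4.27, and near it Larp7 had a pair of narrow peaks (3.23 and 3.45). Pol II and Hexim1 covered 3 of its 5 starts, and no KAP1, Larp7 or Cdk9 peak covered any. No Cdk9 peak lay in the gene. KAP1 peaks appeared in an intron, from 14940 to 15127 (4.50) and from 13647 to 14188 (3.42). The first overlapped peaks of Pol II (7.38), Larp7 (4.04) and Hexim1 (4.50). CCNT1 was in the highest decile for CpG, like LARP7, with a ratio of 0.97. In that decile, 35 of 2013 genes (1.74%) had neither KAP1 nor Cdk9 at a start. Here too the combination was read off the gene itself, and the share tests nothing.

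CCNT2, the second cyclin T gene, had peaks of all 5 lists at its start. At chr2:135675805-135716912, plus strand, the lists met over 474 bp from 520 to 993, which held 4 of its 8 starts. The KAP1 peak there, 489 bp with a fold of 6.98, was rank 754 of 61312 by p and the strongest KAP1 peak of the 8 genes. The Pol II summit (fold 62.6) was 1 bp from an annotated start, and Hexim1 (7.43), Cdk9 (5.44) and Larp7 (3.82) peaks covered 6 starts each. A second, weak cluster lay by internal starts near 30 kb, with Larp7 (2.83), Hexim1 (3.23) and Cdk9 (2.74) and without Pol II or KAP1. CCNT2-AS1, a lncRNA on the opposite strand, starts at 477.

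**Figure D5:**
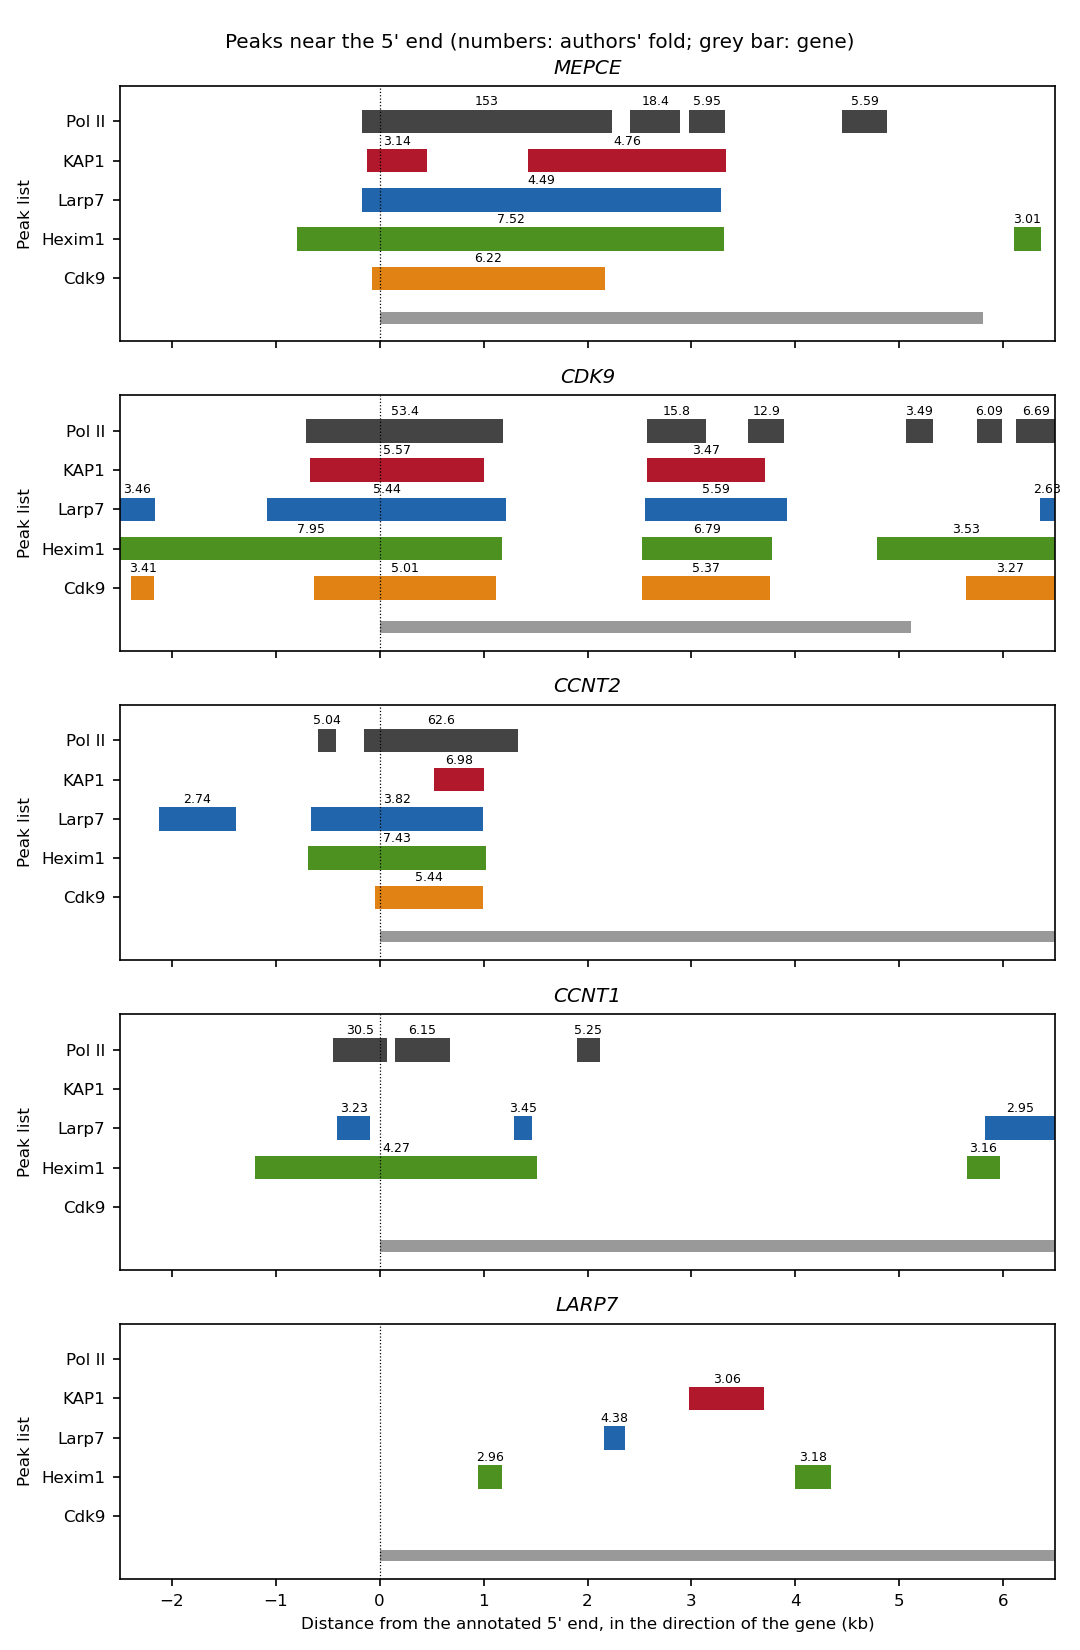
Peaks of the 5 lists (rows) by distance from the annotated 5′ end in kb, in the direction of the gene, at MEPCE, CDK9, CCNT2, CCNT1 and LARP7; numbers are the authors' folds and the grey bar is the gene. All lists meet at MEPCE, CDK9 and CCNT2, and CCNT1 lacks KAP1 and Cdk9 in the stretch shown (its intronic KAP1 peaks lie farther in). LARP7 has only Larp7, Hexim1 and KAP1 peaks there (fold 4.38 or less).

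Along the gene bodies, outside every start window, Larp7 and Hexim1 peaks were present at all 7 coding members (79.6 and 83.4% of coding genes with such a body). Pol II was present in 6 of 7 bodies, all but LARP7 (55.4%), KAP1 in 5 of 7, all but CDK9 and CCNT2 (49.7%), and Cdk9 in 4 of 7 (70.3%). These counts depend on the settings: with start windows of 2 kb Larp7 was left in 3 bodies, with peak middles Hexim1 in 4, and KAP1 in 0 once a −log10 q of 5 or more was asked for. Cover varied between genes and lists. In HEXIM1, 29.6% of the body lay under Pol II peaks and 28.4% under KAP1 peaks, and in MEPCE the shares were 35.6 and 25.0%. CDK9, which has the shortest body, had 14.5% under Pol II, 0% under KAP1 and 0.730% under Cdk9 peaks. Hexim1 covered 63.3% of the HEXIM2 body, the highest share of any list in any member, against a median of 7.05% over coding genes. Peaks that begin at a start and run on into the body count here. No Pol II, KAP1 or Cdk9 peak reached the 20 kb beyond RN7SK and its start windows, while 22 Pol II and 13 Hexim1 peaks did so at HEXIM1, and 19 and 12 at CDK9. Peaks that run on from a start window or body count here too. These flanks also hold starts of other genes under Pol II peaks, such as HEXIM2 (fold 73.2) beside HEXIM1 and FPGS (151) beside CDK9. The same count over coding genes is not given, so these numbers have no background.

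Overlap between the lists at these genes was uneven, as it was over all coding genes, whose share stands second in each bracket. Of 23 Larp7 peaks at the starts or in the bodies, 19 were overlapped by a Hexim1 peak (82.6%, 72.6%), 11 by Pol II (47.8%, 32.5%), 10 by Cdk9 (43.5%, 42.6%) and 9 by KAP1 (39.1%, 30.5%). Of 25 Hexim1 peaks, 17 were overlapped by Larp7 (68.0%, 56.9%), 11 by Pol II (44%, 27.2%), 10 by Cdk9 (40.0%, 36.3%) and 8 by KAP1 (32.0%, 24.5%). The Larp7 and Hexim1 lists thus lay on each other at most peaks, and fewer of their peaks met Cdk9. The Cdk9 list is shorter than theirs, but the Pol II list is shorter still and met 11 peaks of each. What list length adds was not tested. Of 12 Cdk9 peaks, 11 were overlapped by Hexim1 (91.7%, 76.1%), 10 by Larp7 (83.3%, 70.7%), 9 by Pol II (75.0%, 45.6%) and 7 by KAP1 (58.3%, 43.7%). Of 11 KAP1 peaks, 10 were overlapped by Larp7 (90.9%, 92.7%), 9 by Pol II (81.8%, 72.1%), 9 by Hexim1 (81.8%, 94.6%) and 8 by Cdk9 (72.7%, 79.7%). Of 26 Pol II peaks, 22 were overlapped by Hexim1 (84.6%, 89.3%), 19 by Larp7 (73.1%, 83.7%), 14 by KAP1 (53.8%, 60.4%) and 13 by Cdk9 (50.0%, 69.2%). With so few peaks none of these differences from the coding genes was tested. The lists compared differ in length and peak width, and neighbouring peaks at 1 gene are not independent.

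The wider pathway had all 5 lists about as often as other genes with a Pol II peak. Of 33 genes for elongation factors, P-TEFb partners, NELF and DSIF subunits, phosphatases and RNA-binding proteins that take part in the 7SK cycle, 30 (90.9%) had all 5 lists at a start, against 68.0% of coding genes and 88.0% of those with a Pol II peak at a start, as all 33 had. Pol II and Hexim1 were present at 33, Larp7 at 32, Cdk9 at 31 and KAP1 at 30. Their median fold percentile among coding genes with a peak was 80.3 in the Pol II list, 72.5 in that of KAP1, 69.5 in that of Cdk9, 63.6 in that of Hexim1 and 59.4 in that of Larp7. Exceptions were HNRNPA1, a 7SK-binding protein, without KAP1, Larp7 and Cdk9; ELL3, an elongation factor, without KAP1 and Cdk9; and EAF2, a partner of ELL proteins, without KAP1. The highest Pol II folds were at TRIM28, the gene of KAP1 itself (176), and NELFCD, of a pausing factor (129). SRSF2, a splicing factor known to bind 7SK RNA, led the other 4 lists, with a Hexim1 fold of 16.1, a Cdk9 fold of 8.81, a KAP1 fold of 8.35 and a Larp7 fold of 7.44. Next came the phosphatase genes PPP1CA for KAP1 (8.20) and PPM1G for Larp7 (7.16), the DSIF gene SUPT4H1 for Hexim1 (12.8) and HNRNPA2B1 for Cdk9 (7.59).

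Likeness across the 5 lists was measured as the mean absolute difference of fold percentiles at a start, with 0 for no peak, over all coding genes. RN7SK and GSTA4 differed by 0, as did MEPCE and ZCWPW1, since each pair shares its peaks. Next to RN7SK stood DHH, a hedgehog ligand gene (3.54 percentile points), and ENSG00000268614 (3.61), and next to MEPCE stood MMP24OS (3.53) and BMPR1A, a BMP receptor gene (3.72). Nearest to HEXIM1 were MICU2 (2.94), HYAL2 (4.10) and POLR3D, a subunit of Pol III (4.44). HEXIM2 had ECHDC1 (3.37), HIVEP1 (3.61) and SCN8A (3.86). LARP7 had DKK4 (0.344), CD27 (0.355) and POU3F4 (0.408), genes with Larp7 and Hexim1 peaks only, as LARP7 had. CCNT1 had DEPP1 (0.562), SLC30A6 (0.761) and ERCC5 (1.03), which also lacked KAP1 and Cdk9. CDK9 had COL18A1 (3.60), THRA (3.63) and ABCB9 (3.65), and CCNT2 had UGGT1 (3.84), EHD4 (3.90) and RNF145 (5.19). Zeros shared in lists without a peak make the distances of LARP7 and CCNT1 small.

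Stricter peaks separated the genes more than the full lists did. With a deposited −log10 q of at least 5, all 5 lists met at HEXIM2 and CDK9 only (2 of 8, against 11.6% of coding genes). RN7SK then had Pol II, Larp7 and Hexim1 peaks, HEXIM1 Pol II and Hexim1, and MEPCE Pol II, Hexim1 and Cdk9. CCNT2 had every list but Larp7, CCNT1 had Pol II only and LARP7 none. The shares of coding genes were then 74.8% in the Pol II list, 74.2% in the Hexim1 list, 56.1% in the Larp7 list, 29.0% in the KAP1 list and 18.1% in the Cdk9 list.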

How the data were processed

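Peak lists of 5 ChIP-seq libraries (1 per antibody, no replicates) were analysed. Per the submitters' processing notes, reads were handled with Bowtie 1.1 and MACS2 on hg19; their settings, the MACS2 version, the control and the handling of duplicates were not stated in the labels, and depth is unknown. Pol II peaks were deposited in narrow format with summits, the others in broad format, whose middle was used where a position was needed. The deposited values are a fold (ratio of enrichment), −log10 p and −log10 q per peak, as the authors' caller gave them; called regions of KAP1, Larp7, Hexim1 and Cdk9 can be wide. Lists held 61312 to 229679 peaks; 2 Cdk9 peaks on other sequences were left out. No peak ran past a GRCh37 chromosome end.

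Starts, spans and coding sequences came from GENCODE 44 lifted to GRCh37. RN7SK has 2 overlapping entries, merged. RPPH1, RN7SL1 and PECAM1 did not match and were not used. Overlap needed 1 bp. Peaks at starts (1 kb), in bodies and within 20 kb were counted, with the same over all coding genes as background (Python 3.11.15, pandas 2.3.3, numpy 2.4.6, scipy 1.17.1). Intervals are exact Clopper-Pearson, 95%. The overlap code was tested on simulated data, and 200 of 200 planted genes were called correctly. Motif shares used RefSeq promoters. Genes named are the 8 members, genes with a start within 1 kb of theirs, the 3 coding genes most alike to each, the highest 2 pathway genes per list and those without a peak, and the listed Pol III and marker genes. Members and lists were chosen with earlier results of these data known; coverage of coding sequence, the CpG comparison and the overlap shares over coding genes were added after values were seen.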

Additional observations from a re-analysis of the deposited data

How the results depend on the processing

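Of 103 values under 8 alternative settings, 80 stayed within 1.5 times the reported count and 23 moved further. With 2 kb windows, bodies with KAP1 fell to 3, with Larp7 to 3 and with Cdk9 to 2. With a −log10 q of at least 5, members with KAP1 at a start were 3 (29.0% of coding genes), with Larp7 3 (56.1%) and with all 5 lists 2 (11.6%). Bodies with KAP1 were then 0, with Larp7 2, with Hexim1 4 and with Cdk9 1. Pol III genes with KAP1 were 3 and with Cdk9 2. With the 20000 peaks of highest −log10 p per list, members with Larp7 at a start were 1 (39.1% of coding genes) and with all 5 lists 1 (22.2%). Bodies with Pol II were then 2, with KAP1 1, with Larp7 2, with Hexim1 4 and with Cdk9 2. Pol III genes with KAP1 were 4 and with Larp7 5. The body counts under alternative settings have no share of coding genes beside them, so they are no result about the members. With the peak middle inside the window, or each peak cut to its middle and 250 bp on each side, bodies with Hexim1 were 4. The stricter lists hold fewer peaks and the wider start windows leave shorter bodies, by construction; for the other shifts the cause was not tested. At 500 bp HEXIM1 had no Cdk9 peak at its start, with peak middles it had neither KAP1 nor Cdk9, and at 2 kb LARP7 gained KAP1. No paired analysis was possible because each antibody has 1 library. Depth is unknown, so a missing peak cannot be told from too few reads.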
